A study of Arabidopsis thaliana with 16 samples.

Results

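The WRKY genes of groups I, IIb, IIc, IId and IIe other than WRKY25, WRKY26 and WRKY33 were followed in young inflorescences of Arabidopsis thaliana moved from cool to warm conditions. They were taken by gene identifier from a list of 48 genes, and 42 of them had the required minimum of 50 reads summed over the 16 libraries, of 25444 genes listed in any library. The expression filter of the test kept 40 of those 42 genes. The study compared wild type (WT) of ecotype Columbia-0 with zed1-D, a mutant carrying a dominant allele of ZED1, a pseudokinase that works with the immune receptor ZAR1. All plants of both genotypes grew at 18 °C under 16 h of light until the primary stem had bolted and were then moved to 28 °C. Inflorescences with juvenile leaves were taken 0, 3, 12 and 48 h after the move, with 2 libraries in each of the 8 groups, and the 0 h groups had therefore not been warmed. The labels name 1 mutant genotype, call the plants seedlings in their descriptions, and do not say what the 2 replicates of a group share, so the p-values speak of the spread among these libraries, which may be technical.

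WRKY proteins are plant transcription factors that bind W-box elements (TTGACC or TTGACT) through a zinc-finger domain carrying the WRKY heptapeptide. Group I proteins typically carry the domain in a pair, and group II proteins carry it once and are divided by sequence into subgroups. Several act in immunity downstream of MAP kinase cascades or with VQ-motif proteins, others in leaf senescence, phosphate supply, trichome and seed coat development, or stem development. Among the subgroups, IId proteins bind calmodulin.

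The codons of the heptapeptide are shown for 6 genes whose transcripts were higher in zed1-D, because the sixth position sets WRKY50 and WRKY51 apart from the other 46 genes. They were read on the coding strand from the RefSeq annotation of TAIR10.1, and the capitals mark the sixth codon.
WRKY50: tggagaaagtatgggAAGaag
WRKY51: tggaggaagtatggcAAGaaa
WRKY75: tggaggaaatatggcCAAaag
WRKY45: tggaggaagtacggcCAAaaa
WRKY15: tggaggaaatacggaCAAaaa
WRKY6: tggagaaaatatggcCAGaag
The locations were WRKY50 at chr5:9147579-9147599 on the minus strand, WRKY51 at chr5:25908864-25908884 on the plus strand, WRKY75 at chr5:4150786-4150806 on the minus strand, WRKY45 at chr3:326932-326952 on the minus strand, WRKY15 at chr2:9925831-9925851 on the plus strand and WRKY6 at chr1:23017701-23017721 on the minus strand, all in coding exons. A heptapeptide was found in all 48 genes, in 2 copies in 9 of them, and in 1 copy in WRKY19 of group I. The sixth codon was AAG, for lysine, in WRKY50 and WRKY51. It was CAA or CAG, for glutamine, in every other copy found.

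Total counts were 4.74 M to 5.86 M reads in the replicate 1 libraries and 10.35 M to 11.39 M in the replicate 2 libraries, so replicate number and depth cannot be told apart. Levels are library-scaled counts (CPM), with library sizes adjusted by edgeR's trimmed mean of M-values, and each pair of values is given with replicate 1 first. Floral markers AP1, AP3, PI, AG and SEP3 were detected in every library. The summed level of 11 leaf markers was 35699 to 60995 CPM, that of 11 tapetum markers 29.8 to 66.2 CPM and that of 6 pollen markers 20.1 to 55.1 CPM. DYT1, a tapetum regulator, was at 0 in 11 libraries, and ANX2, a pollen tube receptor kinase, was at 0 in 6. In bulk tissue, fewer cells of a type and less RNA per cell cannot be told apart.

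Before warming, in WT, the levels per length differed widely between genes. Levels were taken as the authors' RPKM, which scales a count by gene length and library size. The highest mean RPKM in WT at 0 h belonged to WRKY21 (22.4 and 28.8), WRKY15 (27.7 and 19.1), WRKY20 (24.9 and 21.6), WRKY11 (25.7 and 15.0) and WRKY1 (14.1 and 26.0). These 5 genes overlapped one another and their order was not resolved by the replicates. The lowest of the 42 were WRKY31 (0.0960 and 0.217), WRKY65 (0.170 and 0.193), WRKY28 (0.412 and 0.156) and WRKY71 (0.348 and 0.295). WRKY15 and WRKY11 are of subgroup IId, like WRKY21, whereas WRKY1 and WRKY20 are of group I. The 6 genes under the read minimum were WRKY56 with 2 reads in all libraries, WRKY43 with 4, WRKY34 with 11, WRKY9 with 14, WRKY72 with 26 and WRKY61 with 29. WRKY65, with 56 reads, and WRKY71, with 62 reads, passed the minimum and not the expression filter.

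**Figure D1:**
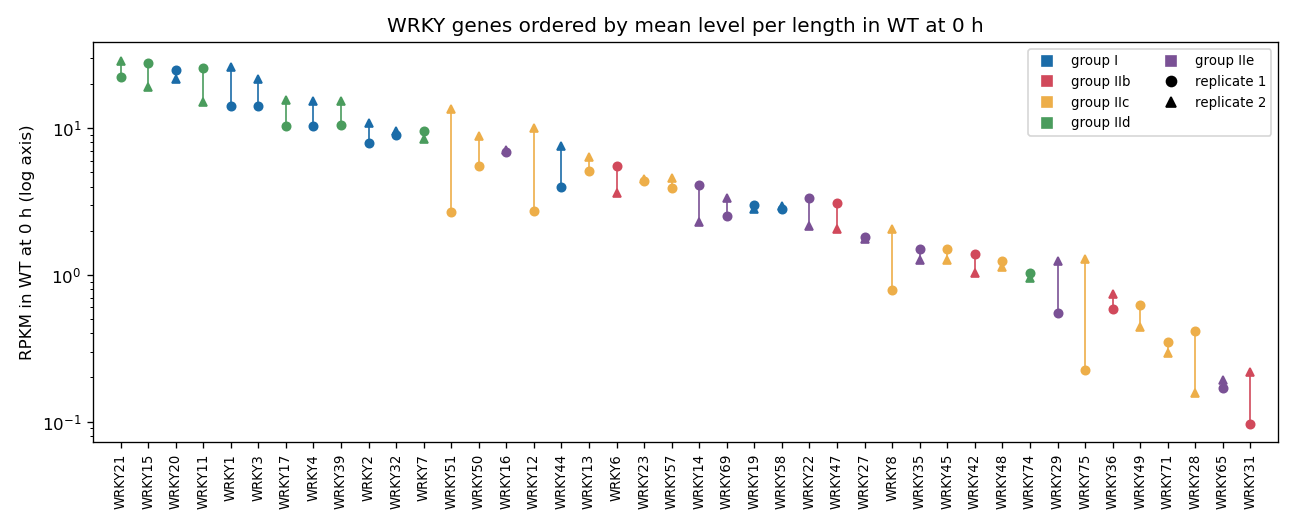
Level of the 42 WRKY genes in WT at 0 h in RPKM on a log axis, 1 circle for replicate 1 and 1 triangle for replicate 2 per gene, coloured by WRKY group and ordered by mean. WRKY21 and WRKY15 stand at the top and WRKY31, WRKY65, WRKY28 and WRKY71 at the bottom, and in many neighbours the replicates overlap.

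The genotypes were compared at each time to ask which WRKY genes differ in zed1-D and from when. Transcripts of several WRKY genes passed the test as higher in zed1-D from 3 h after the move, and the number passing was larger at the later times. Adjusted p-values are from edgeR's quasi-likelihood test with Benjamini-Hochberg adjustment over all 19312 genes tested, and a gene is said to rise or fall where the adjusted p was under 0.05. Values after ± are standard errors (SE), from 2 libraries per group. At 0 h 0 of the 40 WRKY genes differed (0.0466% of all genes tested), with 0 at an unadjusted p under 0.05 and 0 by DESeq2. At 3 h 3 were higher and 0 lower, beside 2.83% higher and 0.233% lower among all genes tested. At 12 h 9 were higher and 0 lower, beside 7.87% and 1.82%. At 48 h 14 were higher and 1 was lower, beside 8.32% and 6.24%. As shares of the 40 genes these counts are 7.50%, 22.5% and 37.5%. By group, 2 of 9 group I genes passed at 48 h, 3 of 5 in IIb, 7 of 12 in IIc, 2 of 7 in IId and 1 of 7 in IIe. The median log2 difference over the 40 genes was 0.07, 0.03, 0.27 and 0.48 at 0, 3, 12 and 48 h, beside medians of -0.003, -0.011, -0.000 and -0.026 over all genes. In all, 16 of the 40 genes passed at some time, 3 of them at 3, 12 and 48 h (WRKY15, WRKY31 and WRKY48) and 8 at both 12 and 48 h. The shares of all genes doing so were not counted. Libraries of the genotypes did not overlap for 22.3%, 32.4%, 42.7% and 49.8% of the 20055 genes with at least 50 reads at 0, 3, 12 and 48 h, against which groups described below as apart are to be read.

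The replicate numbers paired the libraries, and with the number as a block more genes passed. The blocked counts were 1 at 0 h (2.27% of all genes tested), 13 at 3 h (17.1%), 17 at 12 h (35.1%) and 23 at 48 h (45.6%). Without the block, leaving out any 1 of the 4 libraries gave 0 genes at 3 h. At 12 h the count was 7 and 6 without WT replicates 1 and 2, and 8 and 7 without zed1-D replicates 1 and 2. At 48 h it was 7 and 6 without WT replicates 1 and 2, and 12 and 6 without zed1-D replicates 1 and 2. Counts over all genes with a library left out are not given, so these falls cannot be read as particular to the WRKY genes. Marker levels moved between the genotypes too. Before warming the summed tapetum markers (55.0 and 43.0 CPM against 66.2 and 64.4 CPM in WT) and 8 inflorescence and flower markers (67.1 and 68.1 CPM against 85.0 and 86.7 CPM) were lower in zed1-D, with 0 genes of either list passing. At 3 h the summed leaf markers were lower in zed1-D (44300 and 41824 CPM) than in WT (60995 and 52735 CPM), with 1 of 11 genes lower by the test and 11 of 11 with the block. At 12 h they were lower again (41013 and 35699 CPM against 51999 and 44628 CPM), and the summed pollen markers were higher (37.8 and 40.8 CPM against 20.1 and 22.9 CPM). At 48 h the summed tapetum markers were lower (34.4 and 29.8 CPM against 56.9 and 60.9 CPM), with 4 of 8 tested genes lower. So were the summed inflorescence and flower markers (85.6 and 89.4 CPM against 130.7 and 129.7 CPM), with 1 of 7 tested genes lower. That list includes the meristem genes STM and WUS and is called flower markers below. The summed pollen markers were lower too (34.7 and 32.8 CPM against 55.1 and 48.7 CPM), with 1 of 4 tested genes lower. The part of these marker differences in the WRKY results was not tested.

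**Figure D2:**
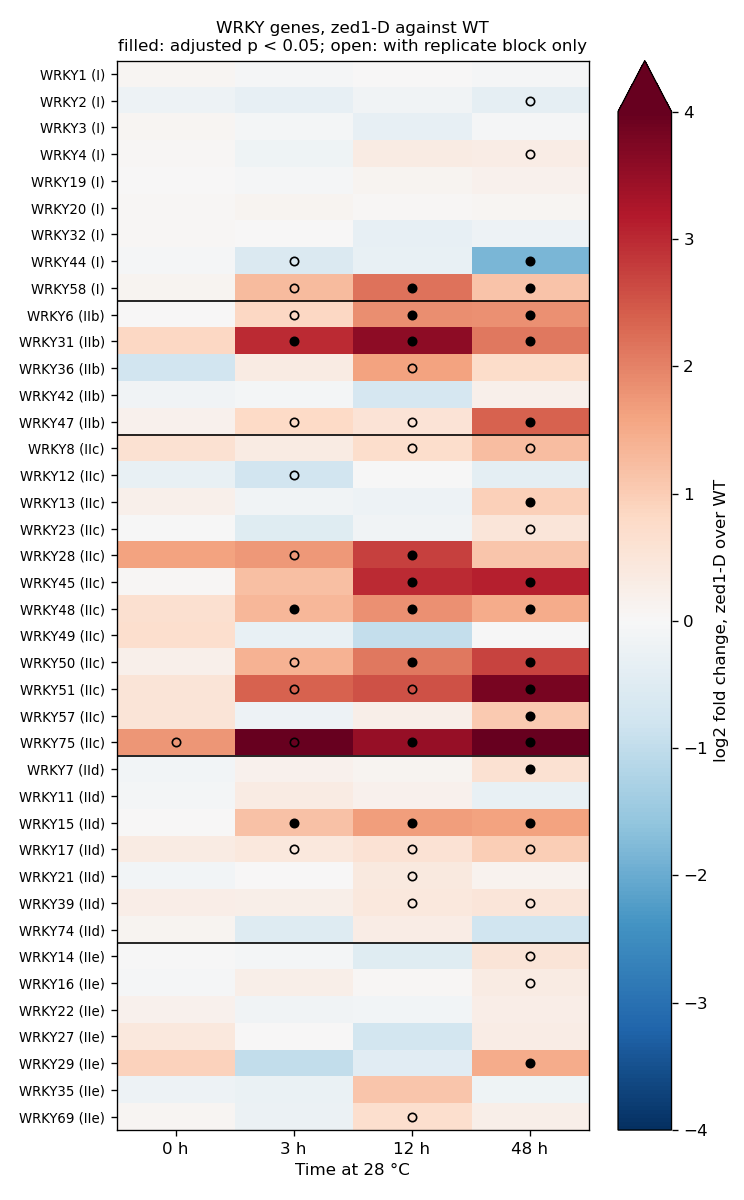
Log2 fold change of zed1-D over WT at 0, 3, 12 and 48 h at 28 °C for the 40 tested WRKY genes, ordered by WRKY group. Filled circles mark adjusted p under 0.05, open circles those under 0.05 with the replicate block alone, and WRKY75 at 48 h lies past the end of the colour scale (4.67). The filled circles number 0, 3, 9 and 15, with WRKY44 the 1 lower gene, and the 3 h colours of WRKY75 and WRKY31 rest on 3 and 2 WT reads.

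WRKY75 (AT5G13080) and WRKY45 (AT3G01970), of subgroup IIc, are close relatives that promote phosphate acquisition and leaf senescence. In WT, WRKY75 had 0.186 and 0.951 CPM at 0 h, 0 and 0.280 CPM at 3 h, 1.51 and 4.39 CPM at 12 h and 0.400 and 0.255 CPM at 48 h. In zed1-D it had 0.836 and 3.22 CPM at 0 h, 1.34 and 5.13 CPM at 3 h, 18.2 and 53.2 CPM at 12 h and 3.23 and 12.0 CPM at 48 h. The groups overlapped at 0 h and were apart at the other times, and replicate 2 was the higher library in every group but WT at 48 h. WRKY75 rose in zed1-D against WT at 12 h by a log2 difference of 3.47 ± 0.81 (SE, adjusted p = 0.0187) and at 48 h by 4.67 ± 1.16 (SE, adjusted p = 0.0205). The 12 h call was lost without WT replicate 1 (adjusted p = 0.137), WT replicate 2 (adjusted p = 0.0769) or zed1-D replicate 2 (adjusted p = 0.157). Without WT replicate 2 the log2 difference was 4.57. Without zed1-D replicate 2 the log2 difference was 2.47. The 48 h call was lost without WT replicate 1 (adjusted p = 0.0788), WT replicate 2 (adjusted p = 0.177) or zed1-D replicate 2 (adjusted p = 0.207). Without zed1-D replicate 1 the log2 difference was 5.25. Without zed1-D replicate 2 the log2 difference was 3.35. At 3 h its WT libraries held 3 reads in sum and its zed1-D libraries 64, a ratio of 19.7 (95% interval 6.44 to 97.9, counting error only), and the test gave an adjusted p of 0.214, or 7.7e-08 with the block. With the block it also passed at 0 h (log2 difference 1.79 ± 0.43, adjusted p = 0.0154).

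WRKY45 was at 1.08 and 1.52 CPM in WT against 8.07 and 13.4 CPM in zed1-D at 12 h. Later it was at 0.599 and 1.02 CPM in WT against 7.40 and 7.97 CPM in zed1-D at 48 h. At both times the zed1-D libraries lay well above the WT ones, whereas at 0 h (1.49 and 1.14 CPM in WT, 2.09 and 0.871 in zed1-D) and at 3 h (1.61 and 0.373 in WT, 1.34 and 2.16 in zed1-D) the groups overlapped. The log2 difference was 2.99 ± 0.50 (SE, adjusted p = 0.00245) at 12 h and 3.12 ± 0.53 (SE, adjusted p = 0.00255) at 48 h. Both calls held with each of the 4 libraries left out in turn. In zed1-D both WRKY45 and WRKY75 were lower at 48 h than at 12 h in each replicate, a difference that was not tested.

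WRKY50 (AT5G26170) and WRKY51 (AT5G64810), which carry lysine at the sixth position of the heptapeptide, repress jasmonate responses when salicylic acid signalling is active, and WRKY50 binds the PR1 promoter. WRKY51 was at 2.05 and 9.32 CPM in WT against 5.85 and 11.0 CPM in zed1-D at 0 h, which overlap. It was at 1.15 and 6.90 CPM in WT against 15.3 and 31.2 CPM in zed1-D at 3 h, at 4.74 and 11.7 CPM in WT against 31.0 and 68.7 CPM in zed1-D at 12 h, and at 2.40 and 3.06 CPM in WT against 23.3 and 53.8 CPM in zed1-D at 48 h. From 3 h on every zed1-D library lay above both WT libraries, and replicate 2 was the higher library in every group. WRKY51 rose at 48 h with a log2 difference of 3.79 ± 0.86 (SE, adjusted p = 0.0128). The call was lost without WT replicate 1 (adjusted p = 0.0812), WT replicate 2 (adjusted p = 0.0955) or zed1-D replicate 2 (adjusted p = 0.0901). Without zed1-D replicate 2 the log2 difference was 3.06. At 3 h (2.37 ± 0.81, adjusted p = 0.219) and at 12 h (2.54 ± 0.77, adjusted p = 0.0646) it did not pass, and with the block it passed at both (adjusted p = 7.6e-12 and 6.0e-16).

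WRKY50 was likewise higher in zed1-D in every library from 3 h on. It had 3.44 and 4.66 CPM in WT against 8.21 and 13.2 CPM in zed1-D at 3 h, 3.45 and 4.98 CPM in WT against 13.8 and 23.4 CPM in zed1-D at 12 h, and 1.40 and 2.47 CPM in WT against 11.8 and 14.7 CPM in zed1-D at 48 h. At each of these times both zed1-D libraries were above both WT libraries, while at 0 h (3.17 and 4.56 CPM in WT, 3.76 and 5.05 in zed1-D) they overlapped. The log2 difference was 2.11 ± 0.36 (SE, adjusted p = 0.00309) at 12 h and 2.69 ± 0.39 (SE, adjusted p = 0.000994) at 48 h, and both calls held with each library left out in turn. At 3 h it was 1.38 ± 0.37 (adjusted p = 0.0860, or 1.1e-06 with the block).

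Subgroup IIb divided into genes that rose and genes that did not pass. WRKY6 (AT1G62300) promotes senescence and represses the phosphate exporter gene PHO1, WRKY42 (AT4G04450) also acts on phosphate transport, and WRKY31 (AT4G22070) is a close relative of both. WRKY6 had 11.2 and 8.02 CPM in WT against 39.6 and 29.5 CPM in zed1-D at 12 h, and 7.99 and 4.68 CPM in WT against 23.7 and 19.7 CPM in zed1-D at 48 h. The groups were apart at both times. Its log2 difference was 1.86 ± 0.35 (SE, adjusted p = 0.00554) at 12 h and 1.82 ± 0.37 (SE, adjusted p = 0.00667) at 48 h. The 12 h call was lost without WT replicate 2 (adjusted p = 0.0861). The 48 h call was lost without WT replicate 2 (adjusted p = 0.0865). At 3 h the difference was 0.83 ± 0.37 (adjusted p = 0.451, or 0.00130 with the block). WRKY42 stood at 1.03 to 3.00 CPM over the 16 libraries and passed in none of the 13 comparisons with or without the block. Its log2 difference between genotypes was -0.69 ± 0.55 at 12 h and 0.21 ± 0.52 at 48 h (adjusted p = 0.613 and 0.867).

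WRKY31 was scarce in WT, with 0 and 0.186 CPM at 3 h, 0.431 and 0.591 CPM at 12 h and 0.200 and 0.510 CPM at 48 h. In zed1-D it had 0.954 and 1.26 CPM at 3 h, 6.42 and 6.79 CPM at 12 h and 1.52 and 2.04 CPM at 48 h. The zed1-D libraries were above the WT libraries at these times, and those at 12 h stood above all others. They were also above at 0 h (0.186 and 0.380 CPM in WT, 0.627 and 0.523 in zed1-D), where WRKY31 did not pass. WRKY31 rose at 12 h by a log2 difference of 3.58 ± 0.40 (SE, adjusted p = 0.000150), which held with each library left out in turn. It also rose at 48 h by 2.12 ± 0.46 (SE, adjusted p = 0.0104). That call was lost without WT replicate 1 (adjusted p = 0.0507) or zed1-D replicate 2 (adjusted p = 0.115). Without WT replicate 2 the log2 difference was 3.10. At 3 h it passed (adjusted p = 0.0244) on 2 reads in WT and 19 in zed1-D, a ratio of 8.76 with a 95% interval of 2.11 to 77.6 from counting alone. The 3 h call was lost with any 1 of the 4 libraries left out (adjusted p = 0.0540 to 0.286).

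WRKY47 (AT4G01720) passed at 48 h and at no earlier time, with 4.60 and 3.91 CPM in WT and 22.2 and 21.1 in zed1-D. These zed1-D libraries were higher than those at 0 h (6.27 and 4.71), 3 h (9.35 and 6.92) and 12 h (10.3 and 8.51). The log2 difference at 48 h was 2.36 ± 0.30 (SE, adjusted p = 0.000361), and it held with each library left out in turn. With the block WRKY47 passed at 3 and 12 h too, with log2 differences of 0.80 ± 0.22 and 0.55 ± 0.19. WRKY36 (AT1G69810), which represses the light-signalling gene HY5, had 0.647 and 0.422 CPM in WT against 1.65 and 1.46 CPM in zed1-D at 12 h (log2 difference 1.61 ± 0.49, adjusted p = 0.0663, or 0.0193 with the block).

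In subgroup IId, WRKY15 (AT2G23320), which acts in growth and in osmotic stress, was abundant in both genotypes. At 0 h it had 37.5 and 23.2 CPM in WT and 33.7 and 27.6 in zed1-D, which overlap. It had 28.5 and 22.9 CPM in WT against 60.3 and 54.3 CPM in zed1-D at 3 h, 45.7 and 31.4 CPM in WT against 138 and 106 CPM in zed1-D at 12 h, and 43.8 and 32.0 CPM in WT against 121 and 109 CPM in zed1-D at 48 h. Every zed1-D library from 3 h on lay above every WT library. The log2 difference was 1.16 ± 0.27 (SE, adjusted p = 0.0425) at 3 h, 1.67 ± 0.27 (SE, adjusted p = 0.00207) at 12 h and 1.61 ± 0.27 (SE, adjusted p = 0.00227) at 48 h. The 3 h call was lost with any 1 of the 4 libraries left out (adjusted p = 0.133 to 0.309). The 12 and 48 h calls held with each library left out. Replicate 1 was the higher library in all 8 groups, unlike in WRKY51.

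WRKY7 (AT4G24240), WRKY11 (AT4G31550) and WRKY17 (AT2G24570), related IId proteins that restrain basal resistance to bacteria, differed in what they showed. WRKY7 rose at 48 h with a small log2 difference of 0.61 ± 0.18 (SE, adjusted p = 0.0462). The call was lost without WT replicate 1 (adjusted p = 0.102), WT replicate 2 (adjusted p = 0.229) or zed1-D replicate 2 (adjusted p = 0.319). WRKY17 had 16.0 and 24.7 CPM in WT against 34.7 and 47.1 CPM in zed1-D at 48 h, with the groups apart (log2 difference 1.00 ± 0.34, adjusted p = 0.0748, or 2.5e-08 with the block). WRKY11 had 51.9 and 24.9 CPM in WT and 37.2 and 24.7 in zed1-D, which overlap, and its log2 difference was -0.31 ± 0.51 (adjusted p = 0.784). WRKY21 (AT2G30590), WRKY39 (AT3G04670) and WRKY74 (AT5G28650) passed in none of the comparisons without the block, while with it WRKY39, which acts in heat tolerance, passed at 12 and 48 h (blocked log2 difference 0.43 ± 0.10 and 0.47 ± 0.10). WRKY21 had 36.7 and 45.8 CPM in WT against 51.4 and 56.9 CPM in zed1-D at 12 h (blocked log2 difference 0.38 ± 0.10, adjusted p = 0.00212).

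Among other IIc genes, WRKY48 (AT5G49520) and WRKY28 (AT4G18170) have named roles in immunity. WRKY48 represses basal resistance, and it had 1.61 and 1.68 CPM in WT against 3.44 and 4.77 CPM in zed1-D at 3 h, 2.16 and 3.04 CPM in WT against 8.80 and 10.2 CPM in zed1-D at 12 h, and 2.00 and 2.81 CPM in WT against 6.64 and 7.35 CPM in zed1-D at 48 h. The zed1-D libraries were higher at all 3 times and also at 0 h (2.42 and 2.00 CPM in WT, 2.72 and 3.83 in zed1-D), where it did not pass (adjusted p = 1.00). The log2 difference was 1.33 ± 0.30 (SE, adjusted p = 0.0368) at 3 h, 1.82 ± 0.27 (SE, adjusted p = 0.00110) at 12 h and 1.50 ± 0.27 (SE, adjusted p = 0.00384) at 48 h. The 3 h call was lost with any 1 of the 4 libraries left out (adjusted p = 0.0507 to 0.409). The later calls held with each library left out. WRKY28, an activator of the salicylic acid synthesis gene ICS1, had 0.647 and 0.253 CPM in WT against 2.75 and 2.49 CPM in zed1-D at 12 h, 3 reads in each WT library. It rose there by 2.74 ± 0.71 (SE, adjusted p = 0.0317) and at no other time without the block. The call was lost with any 1 of the 4 libraries left out (adjusted p = 0.0649 to 0.353). Without WT replicate 2 the log2 difference was 1.98. With the block it passed at 3 h too (log2 difference 1.78 ± 0.61, adjusted p = 0.0414). Its groups were already apart at 0 h (0.559 and 0.190 CPM in WT, 1.25 and 0.871 in zed1-D), where it did not pass.

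WRKY58 (AT3G01080), WRKY29 (AT4G23550), WRKY57 (AT1G69310) and WRKY13 (AT4G39410) also rose at 48 h. WRKY58, a group I gene that restrains systemic acquired resistance, had 1.73 and 2.87 CPM in WT against 11.9 and 10.2 CPM in zed1-D at 12 h, and 3.20 and 2.30 CPM in WT against 6.07 and 5.76 CPM in zed1-D at 48 h. The groups were apart at both times. Its log2 difference was 2.18 ± 0.34 (SE, adjusted p = 0.00161) at 12 h, which held with each library left out, and 1.15 ± 0.34 (SE, adjusted p = 0.0472) at 48 h. The 48 h call was lost with any 1 of the 4 libraries left out (adjusted p = 0.0739 to 0.306). WRKY29, a group IIe gene downstream of the flagellin-triggered MAP kinase cascade, had 0.599 and 1.28 CPM in WT against 2.47 and 3.28 CPM in zed1-D at 48 h with a log2 difference of 1.50 ± 0.41 (SE, adjusted p = 0.0335). The call was lost with any 1 of the 4 libraries left out (adjusted p = 0.0577 to 0.233). Without WT replicate 2 the log2 difference was 2.26. At 3 h it went the other way, with 3.67 and 2.61 CPM in WT against 0.954 and 1.89 CPM in zed1-D at 3 h, a log2 difference of -0.99 ± 0.40 (adjusted p = 0.362), and at 12 h its difference was -0.46 ± 0.38 (adjusted p = 0.618). The zed1-D libraries lay below the WT libraries at both times. At 0 h they lay above (0.559 and 1.14 CPM in WT, 1.88 and 1.66 in zed1-D), where WRKY29 did not pass. Its gene overlaps AT4G23560 on the other strand, and the strand setting of the counting is not given in the sources used here, so reads of these genes cannot be told apart. WRKY57, which acts in drought tolerance, and WRKY13, which promotes stem lignification, rose at 48 h by log2 differences of 1.06 ± 0.30 and 0.94 ± 0.21 (adjusted p = 0.0387 and 0.0119). The WRKY57 groups were already apart at 0 h (5.78 and 6.08 CPM in WT, 10.2 and 7.06 in zed1-D), where it did not pass. The WRKY57 call was lost with any 1 of the 4 libraries left out (adjusted p = 0.0781 to 0.216). The WRKY13 call was lost without WT replicate 1 (adjusted p = 0.0650), WT replicate 2 (adjusted p = 0.0590) or zed1-D replicate 2 (adjusted p = 0.0787).

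WRKY44 (AT2G37260), also named TTG2 and needed for trichome and seed coat development, was the 1 gene that fell in zed1-D against WT. At 48 h it had 5.39 and 6.72 CPM in WT and 2.47 and 1.24 in zed1-D. Earlier it had 7.83 and 13.5 CPM in WT against 10.2 and 10.5 CPM in zed1-D at 0 h, 8.72 and 16.6 CPM in WT against 8.59 and 8.90 CPM in zed1-D at 3 h, and 6.25 and 8.53 CPM in WT against 4.59 and 7.48 CPM in zed1-D at 12 h. At 0, 3 and 12 h the groups overlapped. At 48 h both zed1-D libraries lay below both WT libraries. The log2 difference at 48 h was -1.83 ± 0.45 (SE, adjusted p = 0.0202). The call was lost without WT replicate 1 (adjusted p = 0.0518), WT replicate 2 (adjusted p = 0.128) or zed1-D replicate 2 (adjusted p = 0.216). At 3 h it was -0.57 ± 0.37 (adjusted p = 0.796, or 0.0212 with the block). At 48 h the summed tapetum and flower markers were lower in zed1-D as well, as given above, and their part in this result was not tested.

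The time comparisons asked how the WRKY genes differed from 0 h at the times after the move to 28 °C in each genotype. No plants left at the growth temperature were sampled at 3, 12 or 48 h. Effects of warmth, time of day and plant age therefore cannot be told apart in changes from 0 h. In WT 0 of the 40 genes passed at 3 h against 0 h (1.78% of all genes tested), at 12 h (1.51% of all genes tested) or at 48 h (2.97% of all genes tested) by edgeR, with 6, 3 and 5 at an unadjusted p under 0.05 and 0 by DESeq2 at each time. With the block 5, 6 and 13 passed at 3, 12 and 48 h (20.3%, 21.3% and 29.4% of all genes tested). In zed1-D 0 genes rose and 2 fell at 3 h, beside 2.02% higher and 0.699% lower among all genes tested, and 8 passed with the block (23.9% of all genes). At 12 h 11 rose and 1 fell, beside 10.4% and 4.38%, and 22 passed with the block (43.9%). At 48 h 8 rose and 2 fell, beside 10.7% and 9.34%, and 23 passed with the block (52.7%). A gene passing in zed1-D and not in WT is not thereby shown to differ between them, which the interaction tests address. The counts below with a library left out are given without those over all genes. Leaving out a zed1-D library gave 0 genes at 3 h, or 1 without 3 h replicate 2. At 12 h it gave 7 and 6 without 0 h replicates 1 and 2, and 9 and 7 without 12 h replicates 1 and 2. At 48 h it gave 4 and 6 without 0 h replicates 1 and 2, and 9 and 5 without 48 h replicates 1 and 2.

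In zed1-D at 12 h against 0 h, WRKY75, WRKY31, WRKY45, WRKY51, WRKY50, WRKY15, WRKY6, WRKY36, WRKY48, WRKY58 and WRKY69 (AT3G58710) rose. WRKY75 had the largest log2 difference of these, 3.97 ± 0.84 (SE, adjusted p = 0.00836), followed by WRKY31 with 3.53 ± 0.40 (SE, adjusted p = 0.000143) and WRKY45 with 3.04 ± 0.50 (SE, adjusted p = 0.00193). The WRKY75 call was lost without zed1-D 0 h replicate 1 (adjusted p = 0.0721) or zed1-D 12 h replicate 2 (adjusted p = 0.0711). Without zed1-D 0 h replicate 2 the log2 difference was 5.40. Without zed1-D 12 h replicate 2 the log2 difference was 2.95. The WRKY45 call held with each of the 4 libraries left out in turn (highest adjusted p = 0.0420). Without zed1-D 0 h replicate 2 the log2 difference was 2.37. WRKY31 had 0.627 and 0.523 CPM at 0 h and 6.42 and 6.79 CPM at 12 h, so its libraries at these times lay far apart. WRKY51 rose by 2.53 ± 0.77 (SE, adjusted p = 0.0488), WRKY50 by 2.05 ± 0.36 (SE, adjusted p = 0.00271) and WRKY15 by 2.00 ± 0.27 (SE, adjusted p = 0.000520). The WRKY51 call was lost with any 1 of the 4 libraries left out (adjusted p = 0.0539 to 0.263). Without zed1-D 12 h replicate 2 the log2 difference was 1.80. With each library left out in turn the calls of WRKY31, WRKY50, WRKY15 and WRKY48 held. That of WRKY6 was lost without zed1-D 0 h replicate 2 (adjusted p = 0.0569). That of WRKY36 was lost with any 1 of the 4 libraries left out (adjusted p = 0.0709 to 0.186). Without zed1-D 0 h replicate 2 the log2 difference was 2.79. That of WRKY58 was lost without zed1-D 0 h replicate 2 (adjusted p = 0.120) or zed1-D 12 h replicate 1 (adjusted p = 0.0602). That of WRKY69 was lost without zed1-D 0 h replicate 1 (adjusted p = 0.0735), zed1-D 0 h replicate 2 (adjusted p = 0.0998) or zed1-D 12 h replicate 2 (adjusted p = 0.0757).

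At 48 h against 0 h in zed1-D, WRKY45, WRKY47, WRKY15, WRKY31, WRKY50, WRKY6, WRKY48 and WRKY7 rose, while WRKY44 and WRKY32 (AT4G30935) fell. WRKY44 went from 10.2 and 10.5 CPM to 2.47 and 1.24 CPM, a log2 difference of -2.59 ± 0.44 (SE, adjusted p = 0.00212). The call held with each of the 4 libraries left out in turn (highest adjusted p = 0.0412). Between these times the summed tapetum markers of zed1-D went from 55.0 and 43.0 to 34.4 and 29.8 CPM, with 3 of 8 genes lower (5 lower and 1 higher with the block). Its flower markers went from 67.1 and 68.1 to 85.6 and 89.4 CPM, with 0 of 7 tested genes passing (4 higher with the block). Its pollen markers went from 22.6 and 26.1 to 34.7 and 32.8 CPM, with 2 of 4 tested genes higher. The flower markers of WT went from 85.0 and 86.7 to 130.7 and 129.7 CPM. The part of these marker changes in the WRKY results was not tested. In WT WRKY44 was at 7.83 and 13.5 CPM at 0 h and 5.39 and 6.72 CPM at 48 h (log2 difference -0.82 ± 0.38, adjusted p = 0.341, or 0.00234 with the block). WRKY45 rose by 2.54 ± 0.51 (SE, adjusted p = 0.00536) and WRKY47 by 2.00 ± 0.29 (SE, adjusted p = 0.000800). The WRKY45 call was lost without zed1-D 0 h replicate 2 (adjusted p = 0.0875). Without zed1-D 0 h replicate 1 the log2 difference was 3.14. Without zed1-D 0 h replicate 2 the log2 difference was 1.87. The WRKY47 call held with each of the 4 libraries left out in turn (highest adjusted p = 0.0176). WRKY15 rose by 1.91 ± 0.27 (SE, adjusted p = 0.000676), a call that held with each library left out, and WRKY31 by 1.69 ± 0.44 (SE, adjusted p = 0.0209). The WRKY31 call was lost without zed1-D 0 h replicate 1 (adjusted p = 0.0621), zed1-D 0 h replicate 2 (adjusted p = 0.184) or zed1-D 48 h replicate 2 (adjusted p = 0.193). That of WRKY50 was lost without zed1-D 0 h replicate 1 (adjusted p = 0.0743), zed1-D 0 h replicate 2 (adjusted p = 0.0514) or zed1-D 48 h replicate 2 (adjusted p = 0.0866). That of WRKY6 was lost with any 1 of the 4 libraries left out (adjusted p = 0.0751 to 0.209). That of WRKY48 was lost without zed1-D 0 h replicate 1 (adjusted p = 0.0983) or zed1-D 48 h replicate 2 (adjusted p = 0.106). That of WRKY7 was lost without zed1-D 0 h replicate 1 (adjusted p = 0.0689) or zed1-D 48 h replicate 2 (adjusted p = 0.103). That of WRKY32 was lost without zed1-D 0 h replicate 1 (adjusted p = 0.0673) or zed1-D 48 h replicate 2 (adjusted p = 0.0866).

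The genes that fell at 3 h in zed1-D were WRKY23 (AT2G47260), an auxin-responsive gene of embryo and root patterning, and WRKY13. WRKY23 had 8.99 and 8.28 CPM at 0 h, 2.48 and 3.96 CPM at 3 h, 5.69 and 3.96 CPM at 12 h and 11.4 and 10.5 CPM at 48 h. Its libraries at 3 and 12 h all lay below those at 0 and 48 h. The log2 difference was -1.36 ± 0.25 (SE, adjusted p = 0.0137) at 3 h and -0.86 ± 0.24 (SE, adjusted p = 0.0317) at 12 h. The 3 h call was lost without zed1-D 0 h replicate 1 (adjusted p = 0.0942), zed1-D 0 h replicate 2 (adjusted p = 0.0806) or zed1-D 3 h replicate 1 (adjusted p = 0.109). The 12 h call was lost without zed1-D 0 h replicate 1 (adjusted p = 0.111), zed1-D 0 h replicate 2 (adjusted p = 0.102) or zed1-D 12 h replicate 2 (adjusted p = 0.224). In WT it had 8.95 and 8.37 CPM at 0 h, 4.36 and 4.94 CPM at 3 h, 5.39 and 4.98 CPM at 12 h and 8.39 and 7.31 CPM at 48 h. There the log2 difference at 3 h was -0.88 ± 0.24 (adjusted p = 0.109, or 0.00447 with the block). The interaction at 3 h was -0.49 ± 0.34 (SE, adjusted p = 1.00). WRKY13 had 6.06 and 7.06 CPM at 0 h and 2.67 and 3.96 CPM at 3 h in zed1-D and fell with a log2 difference of -0.95 ± 0.22 (SE, adjusted p = 0.0473). That call was lost with any 1 of the 4 libraries left out (adjusted p = 0.0812 to 0.367).

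**Figure D3:**
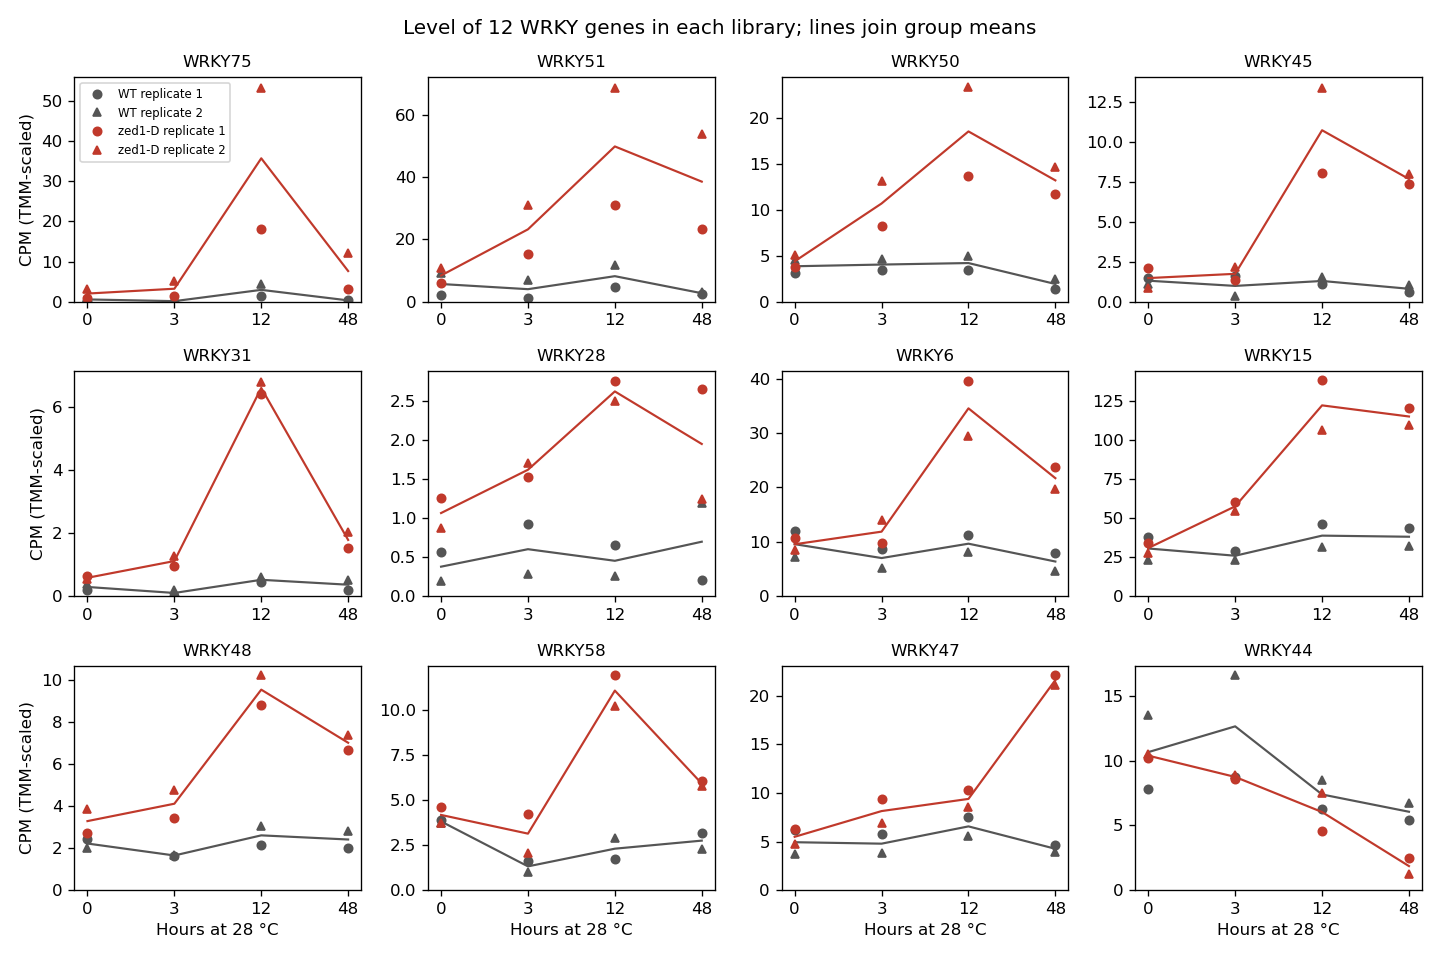
Level of 12 WRKY genes in each library in TMM-scaled CPM against hours at 28 °C, with circles for replicate 1, triangles for replicate 2, and lines joining the means of the 2 libraries of WT (grey) and zed1-D (red). In WRKY75, WRKY31, WRKY45 and WRKY58 the zed1-D mean is highest at 12 h, in WRKY47 at 48 h, and in WRKY44 the zed1-D libraries are the lowest at 48 h.

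Whether the change over time differed between genotypes was tested as an interaction, the zed1-D change from 0 h minus the WT change. At 3 h 0 of the 40 genes passed by edgeR (1.06% of all genes tested), with 3 at an unadjusted p under 0.05 and 0 by DESeq2. At 12 h 2 passed, WRKY58 and WRKY15 (3.25% of all genes tested), and at 48 h 3 passed, WRKY50, WRKY47 and WRKY15 (3.69% of all genes tested). The interaction was positive in all 5. WRKY15 had an interaction of 1.65 ± 0.38 (SE, adjusted p = 0.0400) at 12 h and 1.59 ± 0.38 (SE, adjusted p = 0.0431) at 48 h. WRKY58 had one of 2.06 ± 0.48 (SE, adjusted p = 0.0432) at 12 h. In WT, WRKY58 went from 3.92 and 3.71 to 1.73 and 2.87 CPM, and in zed1-D from 4.60 and 3.75 to 11.9 and 10.2 CPM, so the libraries moved down in one genotype and up in the other. WRKY50 went from 3.17 and 4.56 to 1.40 and 2.47 CPM in WT and from 3.76 and 5.05 to 11.8 and 14.7 CPM in zed1-D, again in opposite directions. Neither WT change passed without the block. With it that of WRKY50 at 48 h passed and that of WRKY58 at 12 h did not. WRKY50 had an interaction of 2.50 ± 0.55 (SE, adjusted p = 0.0312) and WRKY47 one of 2.19 ± 0.43 (SE, adjusted p = 0.0167) at 48 h. With the block 3, 12 and 12 genes passed at 3, 12 and 48 h (5.66%, 20.1% and 27.2% of all genes tested). The 3 at 3 h were WRKY51, WRKY50 and WRKY15.

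The interactions rest on 8 libraries each. That of WRKY15 at 12 h was kept without WT 0 h replicate 2 or WT 12 h replicate 1 and lost without any other of the 8 libraries (adjusted p = 0.0649 to 0.167). That of WRKY58 at 12 h was lost with any 1 of the 8 libraries left out (adjusted p = 0.0740 to 0.177). That of WRKY50 at 48 h was kept without WT 0 h replicate 1 and lost without any other of the 8 libraries (adjusted p = 0.0551 to 0.157). That of WRKY47 at 48 h was kept without WT 0 h replicate 2, WT 48 h replicate 1, zed1-D 0 h replicate 1 or zed1-D 48 h replicate 2 and lost without any other of the 8 libraries (adjusted p = 0.0501 to 0.0887). That of WRKY15 at 48 h was kept without WT 0 h replicate 2 and lost without any other of the 8 libraries (adjusted p = 0.0516 to 0.169). WRKY45 had interactions of 2.95 ± 0.80 at 12 h and 3.08 ± 0.82 at 48 h, which did not pass (adjusted p = 0.0809 and 0.0696, or 0.000689 and 0.000717 with the block).

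Of the 40 genes, 20 passed in none of the 13 comparisons. They include the group I genes WRKY1 (AT2G04880), WRKY2 (AT5G56270), WRKY3 (AT2G03340), WRKY4 (AT1G13960), WRKY19 (AT4G12020) and WRKY20 (AT4G26640). WRKY3 and WRKY4 act in resistance to necrotrophic pathogens, WRKY2 in zygote polarity and germination. WRKY3 stood at 26.4 to 50.3 CPM over the 16 libraries, WRKY4 at 16.8 to 33.8 CPM and WRKY20 at 38.8 to 55.6 CPM. The others were WRKY8 (AT5G46350), WRKY11, WRKY12 (AT2G44745), WRKY14 (AT1G30650), WRKY16 (AT5G45050), WRKY17, WRKY21, WRKY22 (AT4G01250), WRKY27 (AT5G52830), WRKY35 (AT2G34830), WRKY39, WRKY42, WRKY49 (AT5G43290) and WRKY74. WRKY22, which acts with WRKY29 downstream of flagellin perception, stood at 2.57 to 8.73 CPM and had a log2 difference between genotypes of -0.10 ± 0.57 at 12 h and 0.26 ± 0.56 at 48 h (adjusted p = 0.973 and 0.837). At 48 h WRKY2 had 26.0 and 30.9 CPM in WT and 22.8 and 21.3 in zed1-D and was lower with the block (log2 difference -0.40 ± 0.12, adjusted p = 0.00676). WRKY8, at 0.799 and 1.87 CPM in WT against 3.04 and 3.81 CPM in zed1-D at 48 h, was higher with the block (1.21 ± 0.37, adjusted p = 0.00708). With the block, 15 of the 20 passed in at least 1 comparison, and WRKY3, WRKY20, WRKY35, WRKY42 and WRKY74 in none. A p that misses the threshold does not show that these genes were alike in the groups. Shares of all genes passing in none of the 13 comparisons, with or without the block, were not counted. WRKY1, WRKY2, WRKY4, WRKY19, WRKY29 and WRKY69 overlap another annotated gene, so their counts are uncertain without a stated strand setting. WRKY71 (AT1G29860), a promoter of branching and flowering with 62 reads in all, had 0.216 and 0.169 CPM in WT against 0.917 and 0.774 CPM in zed1-D at 12 h and 0.400 and 0.0850 CPM in WT against 0.759 and 1.15 CPM in zed1-D at 48 h. The groups were apart at both times, as they were for 42.7% and 49.8% of genes with at least 50 reads, with 3 WT reads against 14 zed1-D reads at 12 h (ratio 4.50, 95% interval 1.26 to 24.4) and 3 against 17 at 48 h (ratio 5.74, 95% interval 1.66 to 30.6). These intervals cover counting error only, and reads need not be independent molecules.

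The 250 bases before the gene start were searched for the W-box cores TTGACC and TTGACT on both strands, which read GGTCAA and AGTCAA where the core lies on the other strand. They are printed for 3 of the genes that rose at 48 h and hold a core, in TAIR10.1 on the gene's strand, with cores in capitals. The windows are chr2:9924636-9924885, plus strand, for WRKY15, chr3:327413-327662, minus strand, for WRKY45, and chr5:4151202-4151451, minus strand, for WRKY75.
WRKY15: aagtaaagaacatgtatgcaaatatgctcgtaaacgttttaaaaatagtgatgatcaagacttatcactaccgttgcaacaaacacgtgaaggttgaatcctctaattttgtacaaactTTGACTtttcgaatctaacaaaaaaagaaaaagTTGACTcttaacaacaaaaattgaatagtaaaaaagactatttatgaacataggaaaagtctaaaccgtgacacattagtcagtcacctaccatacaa
WRKY45: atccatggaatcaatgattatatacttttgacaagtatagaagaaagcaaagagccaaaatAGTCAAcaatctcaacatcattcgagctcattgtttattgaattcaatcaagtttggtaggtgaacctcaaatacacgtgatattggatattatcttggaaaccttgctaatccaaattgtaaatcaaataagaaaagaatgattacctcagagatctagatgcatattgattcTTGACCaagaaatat
WRKY75: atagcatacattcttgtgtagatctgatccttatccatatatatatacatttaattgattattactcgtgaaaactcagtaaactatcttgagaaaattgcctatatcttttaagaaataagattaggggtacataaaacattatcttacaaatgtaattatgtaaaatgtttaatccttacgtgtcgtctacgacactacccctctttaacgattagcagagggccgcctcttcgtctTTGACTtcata
WRKY15 held 2 cores, starting 131 and 98 bases before the gene start. WRKY45 held 2, at 189 and 15 bases, and WRKY75 held 1, at 11 bases. WRKY29, which also rose at 48 h and is not printed, held 2, at 40 and 26 bases. The other genes that rose at 48 h held none in this window, namely WRKY50, WRKY51, WRKY31, WRKY6, WRKY47, WRKY48, WRKY58, WRKY57, WRKY13 and WRKY7. In all, 12 of the 42 WRKY genes held a core (28.6%), beside 28.4% of 27443 protein-coding genes, and 5 of the 42 held 2 or more, beside 6.2% of those genes.

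Proteins known to act with WRKY factors were followed as lists. VQ-motif proteins bind WRKY domains, and 24 of 28 listed genes were tested. Of these 24 genes 0, 4, 9 and 10 rose in zed1-D against WT at 0, 3, 12 and 48 h and none fell in these 4 comparisons, with median log2 differences of 0.14, 0.43, 0.97 and 0.77, beside the shares and medians of all genes given above. At 0 h 1 had an unadjusted p under 0.05, VQ10, with 5.02 and 4.62 CPM in zed1-D and 2.24 and 2.00 CPM in WT, which are apart. Its log2 difference there was 1.19 ± 0.28 (SE, adjusted p = 0.424, or 0.0179 with the block). VQ10 had 35.6 and 25.7 CPM in zed1-D and 3.67 and 3.97 CPM in WT at 12 h, and SIB1, a partner of WRKY33, had 173 and 219 CPM in zed1-D and 42.1 and 50.9 CPM in WT. Both were far above WT in each zed1-D library. Their log2 differences at 12 h were 2.98 ± 0.25 (SE, adjusted p = 2.4e-05) and 2.07 ± 0.22 (SE, adjusted p = 0.000110), and both calls held with each library left out at 3, 12 and 48 h. SIB2, its close relative, rose by 0.96 ± 0.14 (SE, adjusted p = 0.00102) at 12 h and 1.14 ± 0.14 (SE, adjusted p = 0.000301) at 48 h. At 3 h SIB2 rose by 0.64 ± 0.14 (SE, adjusted p = 0.0337), a call lost with any 1 of the 4 libraries left out. VQ32 had 16.6 and 17.6 CPM in zed1-D and 17.0 and 17.9 CPM in WT at 3 h, where it did not pass (adjusted p = 1.00), and 44.2 and 52.3 CPM in zed1-D and 16.8 and 15.6 CPM in WT at 48 h, where it rose by 1.58 ± 0.16 (SE, adjusted p = 8.4e-05). VQ29 had 7.15 and 5.16 CPM in zed1-D and 0 and 0.338 CPM in WT at 12 h and rose by 4.60 ± 0.62 (SE, adjusted p = 0.000621). VQ28 was at 0 in both WT libraries at 3 h, where zed1-D had 1.34 and 1.62 CPM, and it passed (adjusted p = 0.0120), with 2 of 4 omissions of a library ending the call. With the block 1, 9, 17 and 15 VQ genes rose.

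Of 10 genes of the MAP kinase cascades that phosphorylate WRKY factors, 0, 3, 9 and 7 rose in zed1-D against WT at 0, 3, 12 and 48 h and none fell. Their median log2 differences were 0.03, 0.51, 1.12 and 0.60. Among all genes 2.83%, 7.87% and 8.32% were higher at 3, 12 and 48 h. None had an unadjusted p under 0.05 at 0 h. MPK3, an immune MAP kinase, had 394 and 328 CPM in zed1-D and 113 and 86.9 CPM in WT at 12 h. MPK11, a related kinase, had 26.5 and 25.3 CPM in zed1-D and 2.53 and 3.17 CPM in WT at 3 h. Each zed1-D library was above both WT libraries for these 2 genes at these times. At 0 h MPK11 had 16.7 and 12.8 CPM in zed1-D and 14.2 and 12.2 CPM in WT, which overlap. From 0 to 3 h its WT libraries thus went far down and its zed1-D libraries up. The log2 difference of MPK3 at 12 h was 1.86 ± 0.23 (SE, adjusted p = 0.000346), that of MPK11 at 3 h 3.14 ± 0.29 (SE, adjusted p = 9.1e-05) and that of MKK2, a kinase of a stress cascade, at 12 h 1.02 ± 0.12 (SE, adjusted p = 0.000181). These 3 calls held with each library left out, whereas the 3 h calls of MPK3 and MKK2 were each lost without some of the libraries. MKK4, an activator of MPK3 and MPK6, rose at 12 h by 1.37 ± 0.17 (SE, adjusted p = 0.000386), which also held. MEKK1 rose at 48 h by 0.51 ± 0.14 (SE, adjusted p = 0.0306), a call lost with any 1 of the 4 libraries left out (highest adjusted p = 0.181). With the block 0, 7, 10 and 9 rose.

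Of 15 genes reported as targets of these WRKY factors, 11 were tested in zed1-D against WT. At 0 h 0 differed (3 at an unadjusted p under 0.05), at 3 h 4 rose, at 12 h 3 rose and 1 fell, and at 48 h 3 rose, with median log2 differences of 0.29, 0.65, 0.57 and -0.08, beside the same shares of all genes. With the block the numbers higher were 2, 5, 7 and 4 at these times and the numbers lower 1, 1, 1 and 2. ICS1, the salicylic acid synthesis gene reported as a target of WRKY28, had 171 and 218 CPM in zed1-D and 23.0 and 32.7 CPM in WT at 3 h. It rose by 2.79 ± 0.25 (SE, adjusted p = 7.8e-05) at 3 h, 2.53 ± 0.25 (SE, adjusted p = 6.3e-05) at 12 h and 2.69 ± 0.25 (SE, adjusted p = 4.3e-05) at 48 h, and these calls held with each library left out. At 0 h ICS1 had 33.7 and 42.2 CPM in zed1-D and 22.6 and 27.9 CPM in WT and passed with the block alone (adjusted p = 0.000436). PHO1, the phosphate exporter gene that WRKY6 and WRKY42 repress, had 16.1 and 18.4 CPM in zed1-D and 28.7 and 27.8 CPM in WT at 12 h and fell, with a log2 difference of -0.70 ± 0.18 (SE, adjusted p = 0.0270). The 12 h call of PHO1 was lost with any 1 of the 4 libraries left out. PHO1 did not pass at 3 h (-0.36 ± 0.18, adjusted p = 0.539, or 0.0397 with the block) or at 48 h (-0.26 ± 0.17, adjusted p = 0.412, or 0.0991 with the block). At 0 h it had 28.8 and 23.4 CPM in zed1-D and 21.3 and 19.4 CPM in WT, where it did not pass. PR1, a salicylic acid marker whose promoter WRKY50 binds, already had 111 and 176 CPM in zed1-D and 58.9 and 91.8 CPM in WT at 0 h, which are apart, and passed there with the block (adjusted p = 1.0e-09). It had 135 and 196 CPM in zed1-D and 7.35 and 13.1 CPM in WT at 3 h and 354 and 569 CPM in zed1-D and 36.4 and 51.2 CPM in WT at 48 h. From 0 to 3 h the WT libraries went far down and the zed1-D libraries slightly up. The log2 difference between genotypes was 3.97 ± 0.44 (SE, adjusted p = 0.000300) at 3 h and 3.39 ± 0.42 (SE, adjusted p = 0.000286) at 48 h, and at 12 h PR1 did not pass (adjusted p = 0.0724, or 7.7e-16 with the block). FRK1, a receptor kinase gene of flagellin signalling reported as a target of WRKY22 and WRKY29, was at 0 in both WT libraries at 3 h and at 7.25 and 5.67 CPM in zed1-D (adjusted p = 0.000459). ACS6, an ethylene synthesis gene, rose at 3 and 12 h and did not pass at 48 h, where it had 13.7 and 17.1 CPM in zed1-D and 18.6 and 14.4 CPM in WT.

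Counts for the WRKY genes outside these groups are given side by side, and the difference between them was not tested. Of 12 tested group III genes 0, 9, 10 and 7 rose at 0, 3, 12 and 48 h, or 1, 9, 12 and 9 with the block. Of WRKY18, WRKY40, WRKY60, WRKY25, WRKY26 and WRKY33, 0, 3, 4 and 6 rose, or 2, 5, 6 and 6 with the block. Among all genes tested the higher shares at 3, 12 and 48 h were 2.83%, 7.87% and 8.32%. Of the 40 genes described above 0, 3, 9 and 14 rose.

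The replicate numbers separated the libraries within every group. WRKY1, WRKY12, WRKY17, WRKY21, WRKY39, WRKY50 and WRKY51 were higher in replicate 2 in all 8 groups, and WRKY11, WRKY15, WRKY19, WRKY20, WRKY22 and WRKY47 were higher in replicate 1 in all 8. Of 20055 genes with at least 50 reads, 21.6% and 20.5% did the same. For WRKY51 the median log2 difference of replicate 2 over replicate 1, with 0.5 CPM added, was 1.16, and for WRKY11 it was -0.85.

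**Figure D4:**
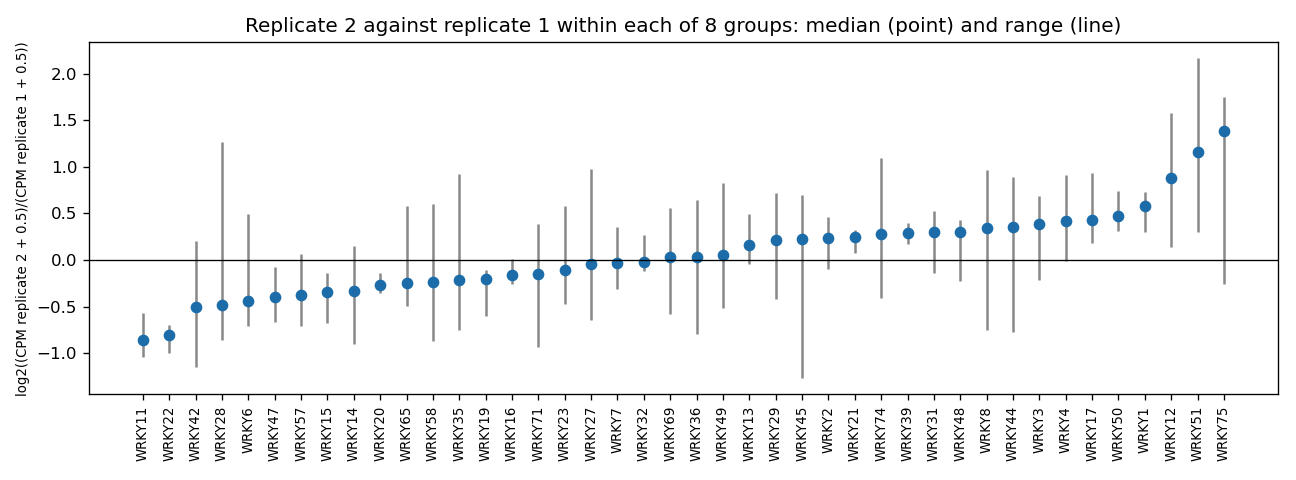
Log2 ratio of replicate 2 over replicate 1 with 0.5 CPM added, for the 42 WRKY genes, with the median over the 8 groups as a point and the range as a line, ordered by median. WRKY11 lies lowest at -0.85 and WRKY75 highest at 1.38, and lines that do not cross 0 are genes whose replicates differ in 1 direction in all 8 groups.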

How the data were processed

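RNA was sequenced in 16 libraries, 2 for each of 2 genotypes and 4 times, and groups and replicate numbers were read from the titles. Per the file headers, each deposited table gives a gene's count of uniquely mapped reads, its length, and an RPKM value that the authors made from the count. Genes without reads are not listed and were set to 0. The submitters' processing notes name TAIR10 as the build, and the sources used here name no aligner, counting tool or strand setting. Sequences were read from the TAIR10.1 RefSeq genome and annotation.

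Counts were fitted with edgeR 4.0.16 (limma 3.58.1, R 4.3.3): filterByExpr, TMM scaling, quasi-likelihood test, 8 group means over all 16 libraries, Benjamini-Hochberg adjustment over the 19312 genes tested in each of 13 comparisons, threshold 0.05. Alternatives were DESeq2 1.42.0, RLE size factors, no low-count filter, the compared groups alone, each library left out, and the replicate number as a block. Libraries with the same number deviated together (correlations of deviations 0.527 to 0.708 over 28 pairs of groups, median 0.655), so the numbers pair them, on the evidence of the counts. The common coefficient of variation was 22.6% without and 5.7% with the block. Intervals of read ratios are exact conditional binomial ones. Genes to be named were those passing in a genotype comparison (at most 12 with values in each), at most 6 per time comparison and every gene passing an interaction. For each genotype comparison, at most 4 passing with the block alone and at most 4 per list were added. Values of a named gene in other comparisons were given as well, and genes passing in none could be named with their levels. The members and lists were chosen with earlier results of these data known.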

Additional observations from a re-analysis of the deposited data

Results flagged for a closer look

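The genotype by time interaction, a test of the difference between the changes of the 2 genotypes, passed for 5 results. These were 2 of the 40 genes at 12 h and 3 at 48 h, beside 3.25% and 3.69% of all genes tested. The interaction value is the zed1-D change from 0 h minus the WT change on the log2 scale. For WRKY15 it was 1.65 at 12 h and 1.59 at 48 h. For WRKY58 it was 2.06 at 12 h, for WRKY47 2.19 at 48 h, and for WRKY50 2.50 at 48 h. In WRKY58 and WRKY50 the WT libraries were lower than at 0 h and the zed1-D libraries higher, though neither WT change passed without the block. Each of the 5 results compares 4 zed1-D with 4 WT libraries. Each call was lost without some of these 8 libraries, as given above.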

How the results depend on the processing

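Replicate numbers pair the libraries, and with the replicate block all 13 counts of WRKY genes passing were larger. Between genotypes they were 1, 13, 17 and 23 at 0, 3, 12 and 48 h. At 3, 12 and 48 h they were 5, 6 and 13 in WT, 8, 22 and 23 in zed1-D, and 3, 12 and 12 for the interactions. The common coefficient of variation was 22.6% without and 5.7% with the block, and its part in these counts was not tested. The block ended none of the 56 calls. With the compared groups alone the count was 0 and 9 between genotypes at 3 and 48 h, 0 in zed1-D at 3 h, and 0 and 0 for the interactions at 12 and 48 h, with fewer libraries to estimate the spread. Without the low-count filter it was 1 in zed1-D at 3 h and 1 for the 12 h interaction. DESeq2 gave 1 in zed1-D at 3 h and 4 and 5 for the interactions at 12 and 48 h. RLE size factors gave 0 for the 12 h interaction. The cause of these changes was not tested. Counts over all genes under these settings, or with 1 library left out, are not given. With 1 library left out the count was 0 to 0 between genotypes at 0 and 3 h, 6 to 8 at 12 h and 6 to 12 at 48 h, 0 to 0 in WT at all 3 times, 0 to 1, 6 to 9 and 4 to 9 in zed1-D at 3, 12 and 48 h, and 0 to 0, 0 to 1 and 0 to 2 for the interactions, with a lone library taken to vary like the other groups. Of the 56 calls, 19 were ended by no omission and 12 by every one. DESeq2 ended 8, RLE size factors 6, no filter 5 and the compared groups alone 25, with no value for 1, and none of them reversed a direction. Genes with few reads, such as WRKY28 and WRKY31 in WT, are limited by depth.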
